A study of Mus musculus with 30 samples.

Results

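Blood RNA of unirradiated p38DKI mice was compared with that of unirradiated p38WT mice, to describe how the genotypes differ before any radiation is given. The comparison used 10 of the series' 30 arrays, 5 per genotype, chosen by genotype and treatment in the sample titles and not by any measured value. The mice were male C57BL/6J, and blood was taken by cardiac puncture into a solution that stabilises RNA. DKI is written here as the labels have it, since they give neither its alleles nor how the line was made, and these arrays do not read a coding change. The other 20 arrays were of p38WT and p38DKI mice that had received an x-ray dose of 7 Gy and were bled 24 h later, and of p38DN mice with and without that dose. Each group held 5 independent experiments per the series design, and the array of 1 experiment was the replicate.

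The p38 kinases are stress-activated MAP kinases. Upstream kinases phosphorylate them in response to cytokines, ultraviolet light, ionising radiation and other stress, and they in turn activate kinases such as MK2 and transcription factors such as ATF2, which shape inflammatory transcripts. The family has 4 genes: Mapk14 (p38 alpha, the broadly expressed form of immune cells), Mapk11 (p38 beta), Mapk12 (p38 gamma) and Mapk13 (p38 delta). Mapk11 and Mapk12 are neighbours on mouse chromosome 15, and Mapk14 and Mapk13 are neighbours on chromosome 17.

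Levels are log2 values with the array's own 75th percentile set to 0, for 18726 genes or unnamed features, each represented by its brightest usable probe. A gene was called when its Benjamini-Hochberg adjusted p in limma was under 0.05 over all 18726. On the 10 arrays the share of probes well above background ran from 51.63 to 63.24%, and the correlation between arrays of a genotype lay between 0.958 and 0.988. Transcripts of blood cells were high in both genotypes: the mean level was 4.24 in p38DKI and 4.2 in p38WT for erythroid markers, and 4.49 and 4.55 for platelet markers. No slide held arrays of both genotypes: the p38WT arrays were on slides 1 and 2 and the p38DKI arrays on slides 3 and 4, all scanned on 1 day. Genotype and slide therefore cannot be told apart within these 10 arrays. Liver transcripts were high on p38DKI array 1, and heart muscle transcripts on p38WT arrays 1 and 3, as given with the marker lists below.

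Few genes differed before irradiation. In p38DKI blood 19 genes were called (0.101% of those tested), of which 16 rose (0.0854%) and 3 fell (0.016%), and all 19 had a fitted change of at least 2-fold. The 5 and 5 arrays did not overlap in 16 of the 19, against 2.88% of all genes. The 19 were picked by their difference on these same arrays, so a high share follows from the choice. At an unadjusted p under 0.05 there were 1376 genes (7.35%), 1046 of them higher (5.59%) and 330 lower (1.76%) in p38DKI. The median difference over all genes was 0.08. The balance of directions depended on the scaling: 6 higher and 6 lower genes were called after scaling to the array median, where the median of all genes was -0.27, and 3 higher and 4 lower with no scaling, where it was -0.38. With the authors' deposited log2 values 10 were higher and 4 lower. The count was 35 with slide as a random block, where the estimated correlation within a slide was -0.051. That estimate is negative, so a larger count with the random block does not show that calls hold once slide is allowed for. The count was 2 with slide as a fixed block, a fit that links the genotypes only through irradiated arrays on the shared slides. It fell to 9 without p38DKI array 4, to 10 without p38WT array 1 or array 2 and to 12 without p38WT array 3. It was 33 without p38WT array 5.

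Among the p38 genes themselves, Mapk11 rose in p38DKI blood. Its level (chromosome 15, mm9, 88973159 to 88973218) was 1.51, 1.79, 2.07, 1.79 and 1.26 on the p38DKI arrays and 0.37, 0.17, 0.07, 0.61 and 0.04 on the p38WT arrays. Every p38DKI array lay above every p38WT array, and the 2.70-fold difference (log2 1.43, SE 0.273, n = 5 and 5) had a limma adjusted p of 0.0239. Mapk11 was called under 17 of 29 other settings and was higher in all of them. The call was lost after scaling to the array median (log2 1.08, limma adjusted p = 0.199), with no scaling (0.98, adjusted p = 0.433), with the deposited log2 values (1.31, adjusted p = 0.0519), with normexp (0.85, adjusted p = 0.242) and with slide as a fixed block (1.98, adjusted p = 0.807). It was also lost without any 1 of p38DKI arrays 2, 3 and 4 or p38WT arrays 1, 2 and 3 (highest limma adjusted p 0.082), and without the 3 arrays highest in liver or heart transcripts (adjusted p = 0.27).

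Mapk12, whose probe lies 0.012 Mb from that of Mapk11 (88961267 to 88961326), ran the same way without being called. It read 0.64, 0.92, 1.25, 1.06 and 0.68 on the p38DKI arrays against -0.07, 0.05, -0.47, 0.04 and -0.93 on the p38WT arrays. Again the groups did not overlap. The log2 difference of 1.18 (SE 0.308) had a limma adjusted p of 0.178.

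Mapk14 was lower in every p38DKI array on its brightest probe (chromosome 17, mm9, 28885290 to 28885349). The levels were 3.10, 3.15, 3.45, 3.45 and 3.4 in p38DKI and 4.32, 3.85, 4.23, 3.71 and 4.01 in p38WT. The groups did not overlap, but the log2 difference of -0.72 (SE 0.229) was not called (limma adjusted p = 0.314). A second, dimmer Mapk14 probe (28873965 to 28874024), designed to the same transcript and well above background on all 10 arrays, went the other way, with means of -0.35 in p38DKI and -1.44 in p38WT. Tested probe by probe, an alternative chosen after the data had been seen, that log2 difference of 1.09 (SE 0.184) had a limma adjusted p of 0.00543 over 23617 probes. The direction for Mapk14 therefore differs between its probes, and the mean of both gave 0.19 (adjusted p = 0.898). Mapk13 overlapped between genotypes: it ranged from -1.51 to -0.73 in p38DKI and from -1.73 to 0.14 in p38WT (log2 difference -0.40, limma adjusted p = 0.858).

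**Figure D1:**
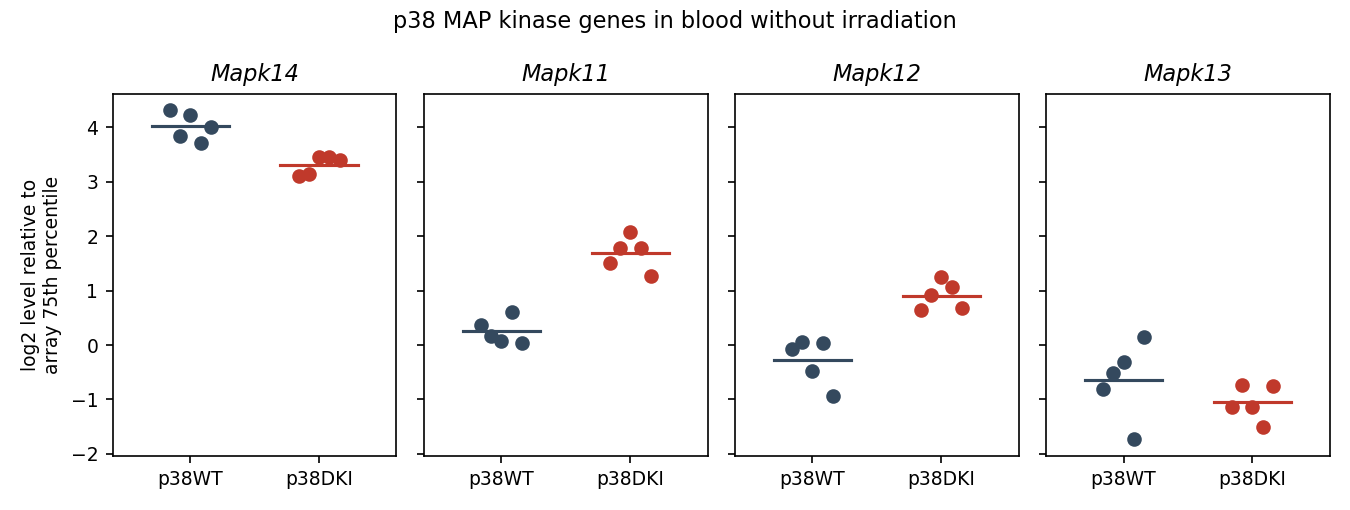
Level of the 4 p38 MAP kinase genes by array (points, 1 per array, in replicate order), as log2 relative to the array's 75th percentile, with the mean of 5 arrays as a line. Mapk11 and Mapk12 are higher in every p38DKI array, Mapk14 (brightest probe) is lower, and Mapk13 overlaps.

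Of the 19 called genes 4 were Mapk11 itself or lay within 10 Mb of it. Among the 245 genes within 10 Mb of its probe 4 were called (1.63%, against 0.101% of all genes), namely Sult4a1, Tomm22, Arhgap8 and Mapk11. The window is centred on Mapk11, so its own call is counted by construction, and Tomm22 lay near the window's edge. All 4 were among the 169 genes from 10 Mb below Mapk11 to 0.5 Mb above it (2.37%). Over 0.5 to 10 Mb above Mapk11 there were 0 called of 76. On the rest of chromosome 15 there were 0 of 489 called by limma, with 34 at an unadjusted p under 0.05 (6.95%). Within 10 Mb of Mapk14 there were 0 called of 478, with 36 at an unadjusted p under 0.05 (7.53%). Around Mapk11 that share was 11.4% (28 genes), and in 23 of the 245 genes (9.39%, against 2.88% of all genes) the arrays of the genotypes did not overlap.

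Promoters from the RefSeq table (build GRCm38.p6) were found for 3 of the 5 genes looked up on this stretch and are shown because these genes lie on 1 stretch of chromosome 15 and differed in every p38DKI array. Each runs from 250 bases before to 50 after the annotated start, 5′ to 3′ on the gene's strand, with capitals for any match, on either strand, to the GC box GGGCGG, the motif CCAAT, the TATA box TATAAA, the cAMP response element TGACGTCA, the AP-1 element TGANTCA, the E box CACGTG or the ETS site CCGGAAG.
Mapk11: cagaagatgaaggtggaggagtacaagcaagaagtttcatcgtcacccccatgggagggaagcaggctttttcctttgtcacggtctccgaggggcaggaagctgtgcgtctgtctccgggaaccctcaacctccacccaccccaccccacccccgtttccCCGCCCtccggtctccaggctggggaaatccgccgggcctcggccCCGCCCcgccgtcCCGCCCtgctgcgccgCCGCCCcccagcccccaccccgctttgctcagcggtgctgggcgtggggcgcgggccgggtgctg
Mapk12: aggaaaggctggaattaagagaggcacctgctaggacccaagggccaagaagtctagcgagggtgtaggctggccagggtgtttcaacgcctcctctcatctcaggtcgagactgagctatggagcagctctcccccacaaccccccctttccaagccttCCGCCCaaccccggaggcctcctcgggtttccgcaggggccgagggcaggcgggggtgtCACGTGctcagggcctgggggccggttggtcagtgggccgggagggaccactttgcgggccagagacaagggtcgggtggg
Tomm22: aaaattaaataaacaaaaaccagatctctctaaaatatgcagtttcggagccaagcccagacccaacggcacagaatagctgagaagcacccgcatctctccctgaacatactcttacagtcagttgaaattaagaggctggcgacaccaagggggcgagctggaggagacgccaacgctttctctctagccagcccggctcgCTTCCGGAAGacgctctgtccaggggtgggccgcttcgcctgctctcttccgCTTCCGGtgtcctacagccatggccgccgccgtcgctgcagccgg

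The windows are chr15:89149557-89149856 (minus strand) for Mapk11, chr15:89140654-89140953 (minus strand) for Mapk12 and chr15:79670618-79670917 (plus strand) for Tomm22. The Mapk11 window held 4 GC boxes and the Mapk12 window 1 GC box and 1 E box, while the Tomm22 window held 3 ETS matches, of which an overlapping pair share bases. None of the 3 windows held a match to the remaining motifs. Of 32851 promoters of this length 35.7% held GGGCGG, 7.15% CACGTG and 8.86% CCGGAAG, and these matches are a description of the letters only.

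Sult4a1, a cytosolic sulfotransferase known mainly from brain, had the largest difference of the comparison. Its brightest probe (chromosome 15, mm9, 83906546 to 83906605) read 4.61, 4.1, 3.97, 4.14 and 4.54 in p38DKI against -2.68, -2.86, -2.36, -3.07 and -2.04 in p38WT. The p38DKI arrays all lay far above the p38WT arrays, of which 4 were well above background, a 117-fold difference (log2 6.88, SE 0.402, limma adjusted p = 8.83e-12). Its other 2 probes were higher in p38DKI too, by a smaller fitted log2 of 4.99 (SE 0.335) and 3.87 (SE 0.410); they were well above background on all 5 p38DKI arrays but on only 0 and 1 p38WT arrays, so these sizes are not exact. Sult4a1 was called under all 29 other settings, and under slide as a fixed block it was the only one of the 19 still called (log2 6.67, adjusted p = 0.00412).

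Arhgap8, which encodes a GTPase-activating protein, also rose. It read -2.49, -1.76, -1.45, -1.94 and -2.03 in p38DKI and was not well above background on any p38WT array, where it read -5.54, -4.07, -4.97, -4.57 and -3.95. The groups lay apart, with p38DKI at least 3.02-fold higher (fitted log2 difference 2.68, limma adjusted p = 5.58e-04), the bound being set by the lowest signal that counted as well above background on each p38WT array.

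Tomm22, a receptor subunit of the import channel in the outer mitochondrial membrane, fell. Its probe (79503096 to 79503155) read 0.50, 0.14, 0.46, 0.53 and 0.38 in p38DKI and 1.84, 1.67, 1.97, 2.34 and 2.53 in p38WT. The genotypes were clearly apart and the p38DKI arrays close to each other, a 3.17-fold fall (log2 -1.66, SE 0.203, limma adjusted p = 7.86e-05). Tomm22 was called under 27 of 29 other settings.

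Close to Tomm22 lies Apobec3, a cytidine deaminase that restricts retroviruses, and all of its 3 probes were lower in p38DKI. The brightest (79738107 to 79738166) read 2.30, 2.75, 2.34, 2.37 and 2.56 in p38DKI and 3.98, 4.06, 3.83, 3.82 and 3.31 in p38WT. These arrays did not overlap, yet the gene just missed the threshold (log2 -1.34, SE 0.295, limma adjusted p = 0.0731). The other probes, each assigned to another transcript, differed more, at log2 -2.25 (SE 0.394, limma adjusted p over probes = 0.00824) and -3.95 (SE 0.403, limma adjusted p over probes = 1.57e-06). They were well above background on 5 p38WT arrays but on only 1 and 2 p38DKI arrays. These 2 probe tests were chosen after the values had been seen.

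Other genes of the stretch differed without being called. Lower in every p38DKI array than in any p38WT array were Cbx6, a Polycomb chromobox gene (log2 -0.88), Mief1, a mitochondrial fission factor (-0.94), Nfam1, an immunoreceptor-type membrane protein (-0.95), and Rabl2, a small GTPase of the Rab-like family (-1.47). Higher without overlap were A4galt, the globotriaosylceramide synthase (log2 1.65, limma adjusted p = 0.11), and Bik, a BH3-only cell death gene (log2 1.63, limma adjusted p = 0.255). Both directions thus occurred side by side, 18 genes higher and 10 lower at an unadjusted p under 0.05.

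**Figure D2:**
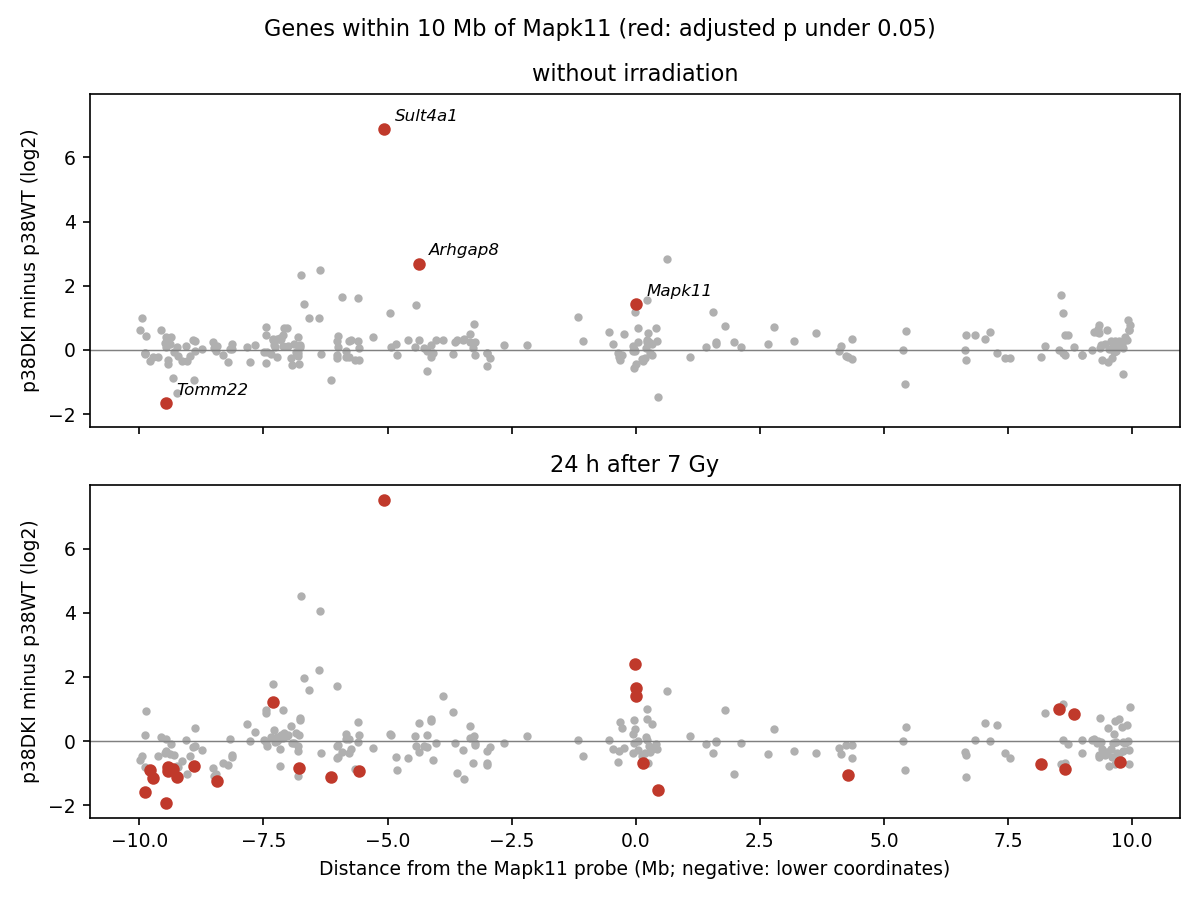
Difference between p38DKI and p38WT (log2) of the 245 genes within 10 Mb of the Mapk11 probe against distance in Mb, without irradiation (top) and 24 h after 7 Gy (bottom). Red points have an adjusted p under 0.05, 4 without irradiation and 26 after 7 Gy, and Sult4a1 stands far above all others in both.

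Of the other 15 called genes 6 lay on chromosome 11. Patz1, a zinc finger regulator of transcription (chromosome 11, mm9, 3194546 to 3194605), read -0.83, -1.54, -1.04, -0.33 and -0.54 in p38DKI and -2.43, -3.20, -2.72, -2.42 and -3.05 in p38WT. It rose 3.75-fold without overlap (log2 1.91, SE 0.339, limma adjusted p = 0.0116) and was called under 21 of 29 other settings. The call was lost without p38DKI array 4 or p38WT array 2 (highest adjusted p 0.0583) and with slide as a fixed block (log2 1.80, adjusted p = 0.807). It was also lost in limma with array median scaling (adjusted p = 0.102), no scaling (0.385), normexp (0.562), the 20 p38WT and p38DKI arrays (0.0763) and without the 3 arrays highest in liver or heart transcripts (0.161). Fn3krp, a kinase that acts on sugar adducts of proteins, read 0.66, -0.40, -0.41, -0.31 and -0.39 in p38DKI and -3.43, -4.51, -3.19, -3.61 and -2.99 in p38WT. Only p38WT array 5 was well above background in that group, and p38DKI array 1 stood above the other p38DKI arrays; the fitted log2 difference of 3.38 (SE 0.585), which rests on p38WT values mostly not above background, had a limma adjusted p of 0.00875.

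Pes1 and Nefh, on the same chromosome, were the other genes called lower, and for each a second probe disagreed. Pes1, a ribosome biogenesis factor (3879948 to 3880007), read -1.40, -1.48, -2.13, -1.75 and -2.40 in p38DKI against 0.25, -0.15, -0.23, -0.18 and -0.42 in p38WT. That is a 3.22-fold fall without overlap (log2 -1.69, SE 0.237, limma adjusted p = 5.58e-04), while the dimmer probe of the gene gave log2 0.34 (SE 0.456). Nefh, the heavy neurofilament subunit (4838758 to 4838817), read -2.32 and -2.10 on p38DKI arrays 1 and 2 and -5.87, -5.50 and -4.97 on arrays 3, 4 and 5. It read -0.92, -0.86, -0.39, -0.91 and -1 in p38WT. The p38DKI levels fell into a higher pair, on slide 3, and a lower trio, on slide 4, so this difference (fitted log2 -3.34, SE 0.555, limma adjusted p = 0.00544) moved with the slide. The lower trio was not well above background, so its size is not exact. The other Nefh probe was higher in p38DKI by log2 1.03 (SE 0.541), and with slide as a fixed block the first gave -1.28 (adjusted p = 0.807). The Nefh call was also lost in limma with the 10 compared arrays alone (adjusted p = 0.123), with the 20 p38WT and p38DKI arrays (adjusted p = 0.0579), with normexp (log2 -0.42, adjusted p = 0.562) and with the mean of both probes (log2 -1.15, adjusted p = 0.556).

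Dnaaf5, an assembly factor for the dynein arms of cilia on chromosome 5 (139662397 to 139662456), read -0.78, -1.79, -1.32, -0.60 and -0.78 in p38DKI. It was not well above background on any p38WT array (-3.72, -3.50, -4.42, -4.12 and -4.33). It was at least 5.56-fold higher in p38DKI, with no overlap (fitted log2 2.96, SE 0.473, limma adjusted p = 0.00384), and was called under 24 of 29 other settings. The call was lost in limma with no scaling (adjusted p = 0.205), normexp (0.562), the 20 p38WT and p38DKI arrays (0.0579), slide as a fixed block (0.807) and without the 3 arrays highest in liver or heart transcripts (0.161).

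Nog, which encodes the bone morphogenetic protein antagonist noggin, rose 2.74-fold. It read 1.11, 1.21, 1.30, 1.85 and 2.40 in p38DKI and -0.10, 0.31, -0.14, 0.40 and 0.13 in p38WT (log2 1.45, SE 0.288, limma adjusted p = 0.0315), and was called with 4 of 10 arrays left out in turn. Olfr1349, an olfactory receptor gene, rose 3.68-fold (limma adjusted p = 0.0283), and LOC102640586, a predicted gene on chromosome 11, 3.45-fold (limma adjusted p = 0.0404). Both were without overlap; Olfr1349 was called in 4 and LOC102640586 in 1 of the 10 fits that each left out an array.

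Of the remaining 7 calls, all rises outside the naming rule, 6 are named after their values were seen. They were Bgn, the matrix proteoglycan biglycan, which rose 3.37-fold (limma adjusted p = 0.0155) with p38WT array 5 inside the range of p38DKI, 1700029M20Rik, 1700019A02Rik, ENSMUST00000231182.1 and the unnamed probes A_55_P2244871 and A_55_P1990066. Of these, 1700029M20Rik, 1700019A02Rik and ENSMUST00000231182.1 were well above background on no p38WT array and on 2 or 3 p38DKI arrays. They passed the probe filter only through a p38DN group, and were not tested where the filter used the compared groups alone. ENSMUST00000231182.1 was at least 1.1-fold higher in p38DKI by its bound, and its log2 difference after 7 Gy was -0.06. Sult4a1, Tomm22, Arhgap8, Pes1, Dnaaf5, Nefh, Fn3krp and ENSMUST00000231182.1 were called whichever of the 10 arrays was left out. With p38DKI array 1 and p38WT arrays 1 and 3 left out together, an alternative chosen after the data had been seen, the calls were 5: Sult4a1, Tomm22, Arhgap8, Pes1 and Nefh.

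**Figure D3:**
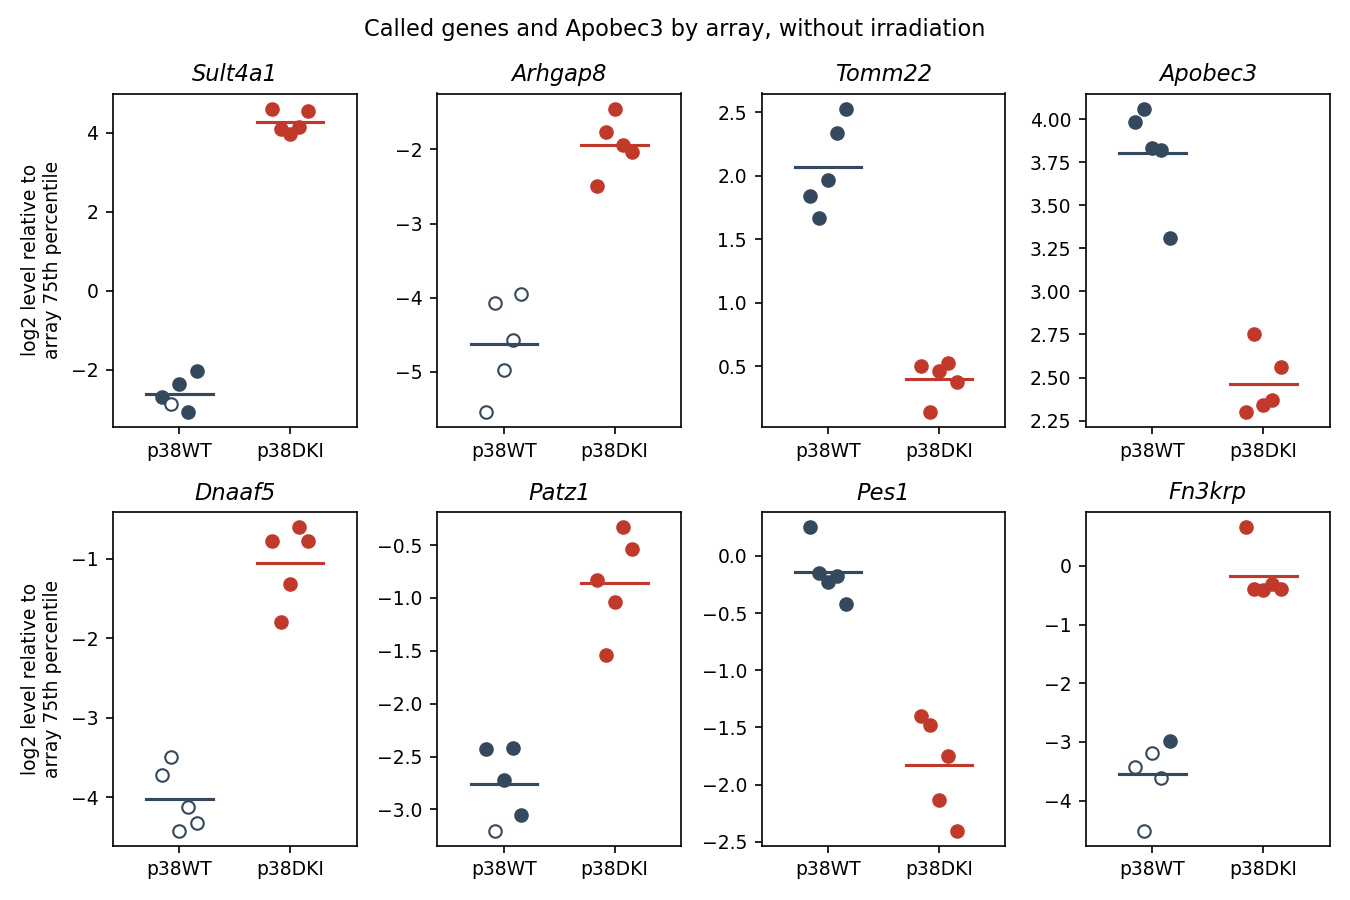
Level by array (points, 1 per array; open where the probe was not well above background) of 7 of the 19 called genes and of Apobec3, as log2 relative to the array's 75th percentile, with group means as lines and an axis of its own for each gene. In none of the 8 genes do the p38WT and p38DKI arrays overlap, which the naming rule required of the 7 called genes.

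The same contrast 24 h after 7 Gy used other mice and no array of the unirradiated comparison. Its p38WT arrays were on slides 2 and 3 and its p38DKI arrays on slides 4 and 5. Genotype and slide therefore cannot be told apart within these arrays either. On irradiated p38WT array 3 only 39.72% of probes were well above background and 1.346% of spots were outliers, the lowest and the highest share of these arrays. In this contrast 844 genes were called (4.51%), 215 higher (1.15%) and 629 lower (3.36%). Of the 19 genes called before irradiation 6 were called again in the same direction, 0 were called in the opposite direction, and 13 were not called; 12 had the same sign. The 6 were Sult4a1 (log2 7.52 after 7 Gy), Tomm22 (-1.92), Dnaaf5 (2.14), Patz1 (1.44), Mapk11 (1.67) and A_55_P1990066 (1.61). Arhgap8 (log2 0.57, limma adjusted p = 0.351), Fn3krp (0.93, limma adjusted p = 0.332) and Pes1 (-0.08, limma adjusted p = 0.875) were not called after 7 Gy. The difference between the contrasts was tested directly and was called for 1 gene of all (0.00534%), which was not among the 19; their smallest adjusted p in that limma test was 0.0655, for Bgn and Olfr1349, and 2612 genes had an unadjusted p under 0.05.

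Near Mapk11 the share called was also above that of all genes after 7 Gy. Of the 245 genes of the window, Mapk11 included, 26 were called after 7 Gy (10.6%, against 4.51% of all genes). A raised share was not particular to this window: within 10 Mb of Mapk14 39 of 478 genes were called (8.16%). Over 0.5 to 10 Mb above Mapk11 it was 6 of 76 (7.89%). Of the 28 genes of the Mapk11 window with an unadjusted p under 0.05 before irradiation, 11 were called after it in the same direction and 0 in the opposite one: Sult4a1, Mapk11, Mapk12, Tomm22, Gtpbp1, Cbx6, Apobec3, Mief1, Nfam1, Sbf1 and Rabl2. Over all genes the counts were 74 in the same and 13 in the opposite direction. The Apobec3 probe with the largest difference before irradiation had log2 -4.19 after it, and Mapk12 had log2 2.41 (limma adjusted p = 9.75e-05). Within 10 Mb of Mapk14 there were 4 such genes of 478: Mapk14 itself on its brightest probe (log2 -0.80, limma adjusted p = 0.0427; the second probe gave 0.05, adjusted p over probes = 0.892), Unkl and the class I genes H2-Q6 and H2-Q7, whose close relatives may share signal on these probes.

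**Figure D4:**
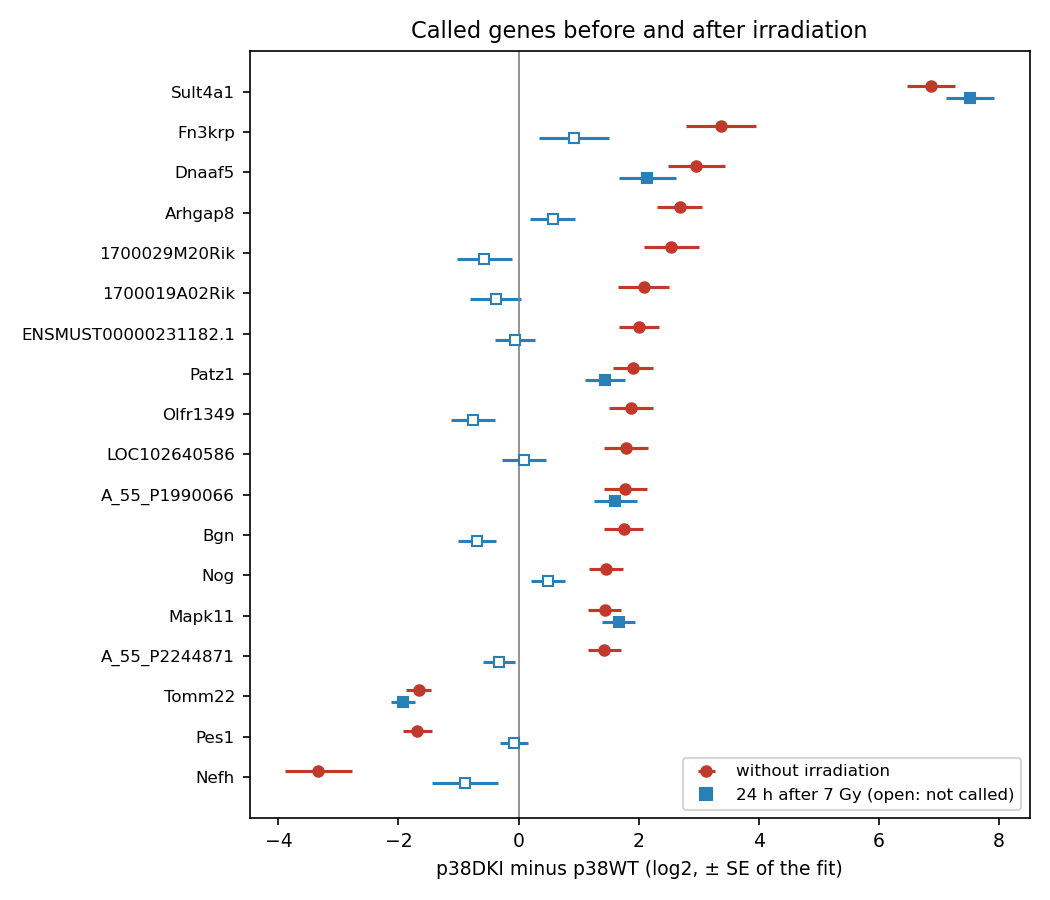
Difference between p38DKI and p38WT (log2, with the SE of the fit as bars) of 18 of the 19 called genes without irradiation (circles) and 24 h after 7 Gy (squares; filled where called, 6 genes). Sult4a1, Tomm22, Dnaaf5, Patz1, Mapk11 and A_55_P1990066 lie on the same side of 0 in both; Arhgap8, Pes1 and Fn3krp do too but are not called after 7 Gy.

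The rest of the p38 pathway was described with lists written from general knowledge. Apart from Mapk11, no gene of the 29 lists (713 measured members) was called in limma, where 0.101% of all genes were called. Among 25 upstream kinases and scaffolds the median difference relative to that of all genes was -0.24, with 0 higher and 1 lower at an unadjusted p under 0.05 (4%, against 7.35% of all genes). That 1 was Map3k7, the kinase TAK1, which ranged from 0.36 to 0.62 in p38DKI and from 0.54 to 1 in p38WT (log2 -0.29, limma adjusted p = 0.646). Among 26 effectors, such as MK2, MSK1 and the factors they phosphorylate, the median was -0.18, again with 0 higher and 1 lower. That 1 was Hspb1, the small heat shock protein downstream of MK2, which read 1.59, -0.18, -1.53, 0.18 and -0.35 in p38DKI against 1.72, 0.55, 2.01, 1.27 and 3.10 in p38WT. Its arrays overlapped and spread widely (log2 -1.79, SE 0.590, limma adjusted p = 0.346), and after 7 Gy the difference was 1.38. With 1 array left out, the median of the upstream list lay between -0.35 and -0.14 (the latter without p38WT array 5) and that of the effectors between -0.24 and -0.11 (the latter without p38DKI array 2).

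MAP kinase phosphatases, which switch p38 and related kinases off, had a median of -0.28 over 13 genes. Dusp6 was lower in each p38DKI array (2.83 to 3.27) than in any p38WT array (3.31 to 3.94), by log2 -0.51 (SE 0.201, limma adjusted p = 0.503). The 19 immediate early and AP-1 genes had a median of -0.29, with Fos (log2 -1.03) and Fosl2 (-0.76) lower at an unadjusted p under 0.05 and overlapping between genotypes. These 2 are 10.5% of the list, against 7.35% of all genes. In the inflammatory cytokine and NF-kB list (median -0.23) 3 of 27 were lower and 0 higher (11.1%, against 7.35% of all genes): the chemokines Cxcl10 (log2 -1.29) and Ccl2 (-1.76) and the NF-kB cofactor Bcl3 (-0.70). Cxcl10 read -3.22, -3.32, -2.76, -3.14 and -2.18 in p38DKI and -1.15, -2.50, -1.32, -1.70 and -1.49 in p38WT (limma adjusted p = 0.333). With 1 array left out, the median of the immediate early list ran from -0.34 to -0.12 (the latter without p38WT array 5) and that of the inflammatory list from -0.29 to -0.12 (the latter without p38DKI array 2, and -0.14 without p38WT array 5).

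Genes of the interferon response were mostly on the low side in p38DKI. Of 37 interferon-stimulated genes 7 were lower and 0 higher at an unadjusted p under 0.05 (18.9%, against 7.35% of all genes), 5 lay above the all-gene median, and the median was -0.41 relative to it. The smallest p belonged to Oas2, an antiviral oligoadenylate synthetase, at 1.02, 0.62, 1.40, 0.98 and 1.39 in p38DKI and 2.38, 1.64, 2.18, 1.11 and 2.33 in p38WT. The p38WT arrays were higher except array 4, which fell inside the p38DKI range (log2 -0.84, SE 0.298, limma adjusted p = 0.421). The mean level of the list likewise overlapped, at 1.33 to 1.55 in p38DKI and 1.33 to 1.91 in p38WT. Ifih1, the RNA sensor MDA5 (log2 -0.42), and Rtp4 (-0.61) followed.

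The 21 genes of MHC class I and peptide loading had a median of -0.32, with 4 lower and 0 higher at an unadjusted p under 0.05 (19%, against 7.35% of all genes) and 1 above the all-gene median. H2-Q7 was the first by p, with 6.27 to 6.71 in p38DKI and 6.71 to 6.84 in p38WT (log2 -0.35, limma adjusted p = 0.387). H2-K1, a classical class I chain, differed by -0.30, and Pdia3, a chaperone of class I loading, by -0.44 without overlap. MHC class II genes had a median of 0.08, with 0 of 11 at an unadjusted p under 0.05, and with 1 array left out it ran from -0.07 (without p38DKI array 3) to 0.16. The interferon and class I medians were -0.41 and -0.35 with p38DKI array 1 and p38WT arrays 1 and 3 left out, and -0.47 and -0.67 with normexp.

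Ribosomal protein genes lay slightly higher in p38DKI: 61 of 65 exceeded the all-gene median, by a median of 0.17, and 6 (against 2.88% of all genes) did not overlap between genotypes. Rpl36 read 9.47, 9.60, 9.40, 9.51 and 9.47 in p38DKI and 8.99, 8.97, 9.07, 9.11 and 8.69 in p38WT, a difference of log2 0.52 (SE 0.147, limma adjusted p = 0.245). The p38DKI arrays were higher throughout, but only 3 of the 65 had an unadjusted p under 0.05 (4.62%, below the 7.35% of all genes), and with normexp background correction the median was -0.33.

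Markers of blood cell types showed no called gene in any list. With 0.101% of all genes called, lists of this size would hold few or no calls at that share. Lower levels of a cell type's transcripts could mean fewer such cells or less RNA per cell, which whole blood cannot tell apart. Neutrophil markers had a median of -0.48 relative to all genes (27 genes, 2 lower at an unadjusted p under 0.05, or 7.41% against 7.35% of all genes), with mean levels of 1.17 to 1.69 in p38DKI and 1.20 to 2.53 in p38WT. With 1 array left out that median ran from -0.65 to -0.18, the latter without p38WT array 5, and with slide as a fixed block it was -1.75. Mmp9, a gelatinase of neutrophil granules, read -1.04, -0.75, 0.66, -0.97 and -0.13 in p38DKI against 0.88, 0.21, 1.08, -0.36 and 1.63 in p38WT (log2 -1.13, limma adjusted p = 0.569). Among 25 monocyte and macrophage markers 4 were lower and 0 higher (16%, against 7.35% of all genes), and 3 were without overlap (against 2.88% of all genes). The list's median was only -0.13, and it reached 0.01 without p38DKI array 2 and -0.29 without p38WT array 2. The lower genes included Fcgr1, the high-affinity IgG receptor (log2 -1.12, limma adjusted p = 0.283), Ms4a6d (-1.13) and Ms4a6c (-0.82). After 7 Gy these 3 differed by 0.00, 0.51 and -0.04.

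Few lymphoid markers had an unadjusted p under 0.05. Above the all-gene median were 3 of 23 B cell markers, 13 of 29 T cell markers and 5 of 21 NK and cytotoxic cell markers. B cell markers had a median of -0.16 with 0 of 23 at an unadjusted p under 0.05, T cell markers -0.03 with 1 of 29, and NK and cytotoxic cell markers -0.16 with 0 of 21. With 1 array left out these medians ran from -0.32 to -0.06, from -0.09 to 0.06 and from -0.22 to -0.09. The T cell gene was Cd4, the coreceptor of helper T cells, which read 3.36, 3.68, 3.57, 4.03 and 4.23 in p38DKI and 3.17, 3.58, 3.25, 3.50 and 2.83 in p38WT (log2 0.51, limma adjusted p = 0.445). Erythroid and platelet markers had medians of 0.00 and -0.08, with 0 of 40 and 0 of 30 at an unadjusted p under 0.05.

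**Figure D5:**
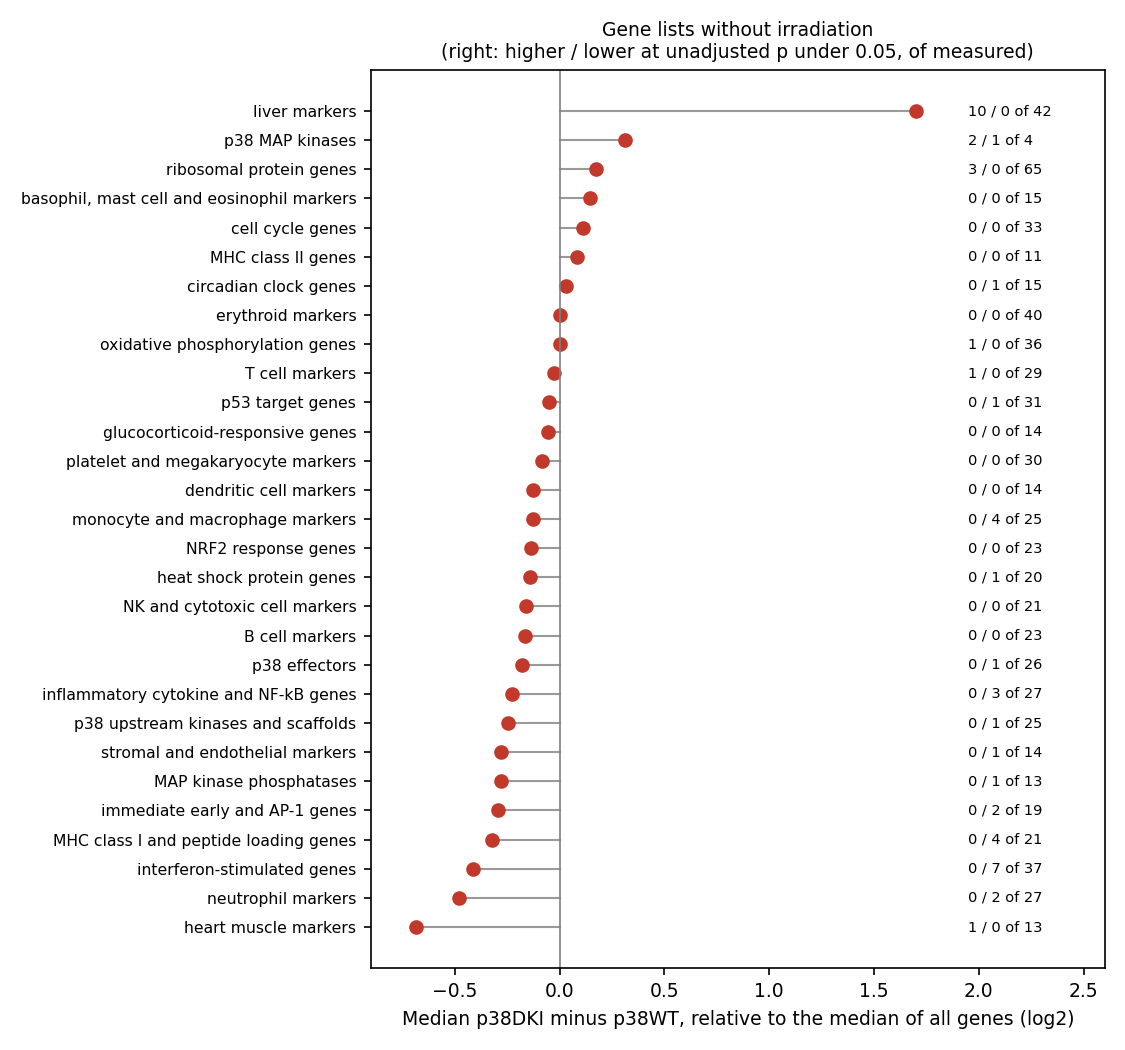
Median difference between p38DKI and p38WT without irradiation over the measured members of each of 29 gene lists, relative to the median of all genes (log2), with counts of members higher and lower at an unadjusted p under 0.05 on the right. Liver markers stand at 1.70, interferon-stimulated genes at -0.41 and neutrophil markers at -0.48, and the remaining lists other than heart muscle markers lie between -0.32 and 0.31.

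Markers of tissues other than blood varied between arrays. Liver markers had a median of 1.70 relative to all genes, with 10 of 42 higher and 0 lower at an unadjusted p under 0.05 (23.8%, against 7.35% of all genes). The median was 0.93 without p38DKI array 1, between that and 2.18 with any other array left out, and 0.92 without the 3 arrays highest in liver or heart transcripts. Their mean level was 2.65, -2.06, -2.38, -0.53 and -0.99 in p38DKI and -3.25, -2.32, -2.90, -3.31 and -2.94 in p38WT, so p38DKI array 1 stood highest and 1 p38DKI array overlapped p38WT. Between 22 and 42 of the 42 were well above background on the p38DKI arrays and between 14 and 22 on the p38WT arrays. The major urinary protein gene Mup1 read 6.68, -1.98, -0.43, 3.63 and 2.52 in p38DKI and at most -1.63 in p38WT (log2 5.38, limma adjusted p = 0.382), and it has near-identical copies that may share its signal. A fit with the mean liver level as a covariate called 244 genes, among them all 19. Heart muscle markers had mean levels of 1.32 and 0.10 on p38WT arrays 1 and 3 and between -3.14 and -1.13 on the other 8 arrays. The same fit with the heart level called 25, of which 18 were among the 19. The part of these transcripts in the differences of other genes was not tested beyond these fits.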

How the data were processed

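RNA of mouse blood was hybridised to one-colour Agilent arrays, and the authors deposited scanner files of intensity, read with Agilent Feature Extraction 12.0.2 per the file headers and the submitters' processing notes; the software subtracts background and gives dim spots surrogate values. The authors also deposited a table of log2 values for 18417 probes, equal to the log2 signal minus 1 constant per array for probes spotted once; these were used as an alternative. Here log2 intensity was reduced by the 75th percentile of each array, outlier spots were left out, and a probe was kept when well above background on at least 4 of 5 arrays of at least 1 of the 6 groups, with a value on at least 20 arrays. Each gene was represented by the brightest of its kept probes: 23617 probes gave 18726 genes or features, 15141 with a name in the RefSeq gene list. Probe coordinates are mm9. Their place in exons or untranslated regions was not analysed here.

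Group means were fitted with limma 3.58.1 to all 30 arrays (24 residual degrees of freedom), so the SE pools the spread of all groups. The p38DN arrays, from other slides and scan days, entered that spread, the probe filter and the choice of the brightest probe. A fit of the 10 arrays alone, on the same genes, was an alternative. The number of arrays limits the precision. Levels of different probes are not compared. Members, lists and rules were chosen with earlier results of these data known. Named were the p38 genes, called genes among the 15 largest rises and falls without overlap and with every array of the higher group well above background, the 3 list members with the smallest p, called genes within 10 Mb of Mapk11 or Mapk14, and genes called in opposite directions before and after 7 Gy, of which there were 0. Other genes near Mapk11 were named after their values were seen. The values of 1 called gene are not reported here. The fit was tested on simulated data. Other software was R 4.3.3 with jsonlite 2.0.0 and the data.table package, version 1.17.8. Figures were drawn in Python 3.11.15 (matplotlib 3.10.9).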

Additional observations from a re-analysis of the deposited data

Results flagged for a closer look

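Single arrays stood apart from the other 4 of their group in 11 of 116 groups of 5 examined (29 genes and 29 lists in each genotype), where chance flags about 1 in 20. Among the p38DKI arrays these were A_55_P1990066 on array 5 (-2.72), Fn3krp on array 1 (0.66), LOC102640586 on array 5 (-0.59), Mief1 on array 1 (-2.91, not well above background) and the mean level of the MAP kinase phosphatases on array 2 (1.03). Among the p38WT arrays they were Bgn on array 5 (-0.36), Nefh on array 3 (-0.39) and, for mean levels of lists, the MAP kinase phosphatases (1.13), interferon-stimulated genes (1.33) and NRF2 response genes (2.46) on array 4 and cell cycle genes on array 5 (0.07). Leaving out each array in turn gave interferon medians of -0.58 to -0.32.

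The genotype contrast changed with irradiation for 1 of 18726 genes (0.00534%), the olfactory receptor gene Olfr1402 on chromosome 3. It was higher in p38DKI without irradiation (means -1.68 against -2.53, SD 0.300 and 0.347, n = 5) and lower after 7 Gy (-3.03 against -1.87, SD 0.447 and 0.341, n = 5). The difference of the differences was -2.00 (limma adjusted p = 0.0415). The groups did not overlap in either contrast.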

How the results depend on the processing

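The count of 19 genes for p38DKI against p38WT without irradiation became 30 with the 75th percentile taken over probes well above background on all 30 arrays, 12 with array median scaling, 7 with no scaling, 1 with normexp and 7 with the 20 p38WT and p38DKI arrays. It was 2 with slide as a fixed block, 35 with slide as a random block, 244 with the liver marker covariate and 5 without the 3 arrays highest in liver or heart transcripts. It ranged from 9 to 33 with 1 of the 10 arrays left out, and from 14 to 25 in the other settings. Replicate numbers did not pair the samples (correlations of deviations -0.105, 0.301, -0.28, 0.067 and -0.162); with the replicate block the count was 22.

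After 7 Gy the count of 844 was 88 with array median scaling, 76 with no scaling, 444 with the deposited log2 values, 1 with normexp and 335 with no filter on dim probes. It was 1 with slide as a fixed block, 1921 with slide as a random block, 124 with the liver marker covariate and 498 without the 3 arrays. Leaving out 1 unirradiated array gave 677 to 832. The arrays left out, here and with the 3 arrays, were all unirradiated and so not part of this contrast. Only the pooled spread changed in those fits, and no irradiated array was left out.

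The 1 gene whose contrast differed with irradiation became 4 with no scaling, 75 with slide as a random block and 2 probe by probe. The count ran from 0 to 40 with 1 unirradiated array left out (40 without p38WT array 5). It became 0 in limma with the first scaling above, array median scaling, normexp, no filter, the 20 arrays, trend and robust variances, the replicate block, the liver covariate or without the 3 arrays, where 1451 to 5311 genes had an unadjusted p under 0.05.

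Over named genes and other settings, 5 differences turned in sign: Mapk14 with the mean of its probes (0.19), Pes1 (0.22) and Cbx6 (0.024) with the deposited log2 values, and Mief1 (0.061) and Rabl2 (0.036) with normexp. A call was lost in 174 cases and gained in 14, and 636 kept their side. List medians moved by less than 1 SD between arrays in 785 cases and by more in 56. With normexp (offset 50) the log2 difference of Arhgap8 was 0.79, of Tomm22 -1.39 (limma adjusted p = 0.562 for both) and of Mapk14 -1.08. Some risen genes, such as Arhgap8, Dnaaf5 and Fn3krp, were well above background on at most 1 p38WT array, which limits their folds. The causes of the changes between settings were not tested.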

Other observations

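The start of chromosome 11 held several genes that differed in both directions. Within its first 10 Mb (mm9), a window chosen after the values had been seen, 3 of 89 genes were called (3.37%, against 0.101% of all genes), namely Patz1, Pes1 and Nefh, and 15 had an unadjusted p under 0.05 (16.9%, against 7.35% of all genes), 7 higher and 8 lower. Among these was Camk2b, a subunit of the calcium and calmodulin-dependent kinase II, with means of -1.87 in p38DKI and 1.11 in p38WT and no overlap (log2 -2.98, SE 0.768, limma adjusted p = 0.178). Tmed4, a cargo receptor of the early secretory pathway (log2 -1.23, limma adjusted p = 0.154), and Nudcd3 (log2 0.74, limma adjusted p = 0.286) did not overlap either. After 7 Gy 2 of the 89 were called (2.25%, against 4.51% of all genes), and Camk2b, Tmed4 and Nudcd3 differed by -0.71, 0.31 and -0.11.

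Syt10, a synaptotagmin gene 0.64 Mb from Mapk11, had a large difference that was not called. It read 8.55, 8.26, 7.94, 7.64 and 8.04 in p38DKI and 4.79, 7.79, 5.73, 4.23 and 3.66 in p38WT (log2 2.85, limma adjusted p = 0.271). The p38DKI arrays were all bright, and p38WT array 2 reached their range. After 7 Gy the levels ran from 3.68 to 8.46 in p38DKI and from 2.68 to 7.81 in p38WT.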
